A study of Mus musculus with 14 samples.

Results

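Brain vessels are built from endothelial cells, which line the lumen and form the blood-brain barrier, and from mural cells (pericytes and smooth muscle), which surround them. A set of 39 genes of these cells was followed in mouse brain after chemical inhibition of the lysosomal enzyme that breaks down glucosylceramide. The genes were chosen by symbol, and all 39 were found among the 13866 genes of the count table. By role, 9 were barrier genes, 12 were general endothelial genes, 2 were arterial endothelial genes, 9 were genes of activated or specialised endothelium and 7 were mural genes. Of the 39, 34 had enough counts to be tested, and Ocln, Slco1a4, Aplnr, Anpep and Acta2 did not.

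Brain RNA of mice aged 19 days was measured by MARSseq, which counts reads at transcript 3′ ends, with 1 library per mouse. WT mice of the strain C57BL/6JOlaHsd received either PBS (WT + PBS, n = 3) or the inhibitor CBE at 100 mg/kg (WT + CBE, n = 3). CBE (conduritol B-epoxide) blocks acid beta-glucosidase irreversibly and is used to model the neuronopathic form of Gaucher disease. MyTrMaSt null mice, which lack the innate immune adaptors Myd88, Ticam1 (Trif), Mavs and Tmem173 (Sting) in all cells, received PBS (MyTrMaSt + PBS, n = 3) or the same CBE dose (MyTrMaSt + CBE, n = 5). The injections were daily and began in the second week of life. Nothing in the sources says that vessels were isolated, so every value is a level in brain homogenate, where fewer cells of a type and less RNA per cell cannot be told apart.

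After CBE, 6 of the 8 tested genes of activated or specialised endothelium rose in WT mice (Icam1, Vcam1, Ly6a, Edn1, Plvap and Glycam1), against 6.7% of all tested genes, and 2 in MyTrMaSt mice (Icam1 and Glycam1), against 5.32%. This contrast depends on the libraries fitted. Without WT + PBS replicate 1, Plvap was lost in WT mice, and Ly6a and Vwf were called as well in MyTrMaSt mice (edgeR adjusted p = 0.00683 and 0.0193). With only the groups compared fitted, Vcam1, Ly6a, Edn1 and Plvap were lost in WT mice, and Ly6a and Vwf were again called in MyTrMaSt mice. CBE lowered the arterial gene Gkn3, the peptide ligand gene Apln, the pericyte gene Rgs5 and the endothelial surface gene Itm2a. These falls passed the test in both genotypes over all libraries. The WT calls of Itm2a and Rgs5 were lost with only the WT libraries fitted and with Xist as a covariate. The MyTrMaSt calls of Apln and Rgs5 were lost without MyTrMaSt + PBS replicate 3. Between the genotypes after CBE, Icam1, Vcam1 and Ly6a were lower and Apln and Glycam1 higher in MyTrMaSt than in WT brain, and the test of the difference between the 2 responses called no member. No barrier gene was called by edgeR in any comparison over all 14 libraries, while DESeq2 called Bsg in WT mice and between the genotypes after PBS. The barrier calls depended on WT + PBS replicate 1. With that library left out the Bsg log2 fold change in WT mice moved from -1.12 to -0.14. EdgeR then called Slc2a1 higher and Slco1c1 lower after CBE in both genotypes.

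As background, the barrier rests on tight junctions, on carriers such as the glucose transporter Slc2a1 and the lipid transporter Mfsd2a, on efflux pumps such as Abcb1a, and on low vesicle traffic across the cell. Endothelium exposed to inflammatory cytokines displays Icam1 and Vcam1, the ligands by which leukocytes bind the vessel wall. Pericytes, held in place by PDGF signalling through Pdgfrb, are needed for the barrier to form and to last.

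Sequences around the transcription start of 5 members are shown because these genes changed in the same direction in both genotypes, Icam1 and Glycam1 upward and the others downward. They come from RefSeq (GRCm38.p6) and span 250 bases before to 50 bases after the start, in the direction of transcription. Capitals mark TTCNNNGAA, the letters of the gamma-activated site bound by STAT factors.

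Icam1 (chr9:21015690-21015989, plus strand): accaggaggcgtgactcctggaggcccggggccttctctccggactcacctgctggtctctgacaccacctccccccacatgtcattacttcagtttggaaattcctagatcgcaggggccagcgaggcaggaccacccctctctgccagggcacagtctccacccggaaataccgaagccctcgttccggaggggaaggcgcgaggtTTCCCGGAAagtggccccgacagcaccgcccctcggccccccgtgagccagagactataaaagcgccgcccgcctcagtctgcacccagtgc
Glycam1 (chr15:103565032-103565331, minus strand): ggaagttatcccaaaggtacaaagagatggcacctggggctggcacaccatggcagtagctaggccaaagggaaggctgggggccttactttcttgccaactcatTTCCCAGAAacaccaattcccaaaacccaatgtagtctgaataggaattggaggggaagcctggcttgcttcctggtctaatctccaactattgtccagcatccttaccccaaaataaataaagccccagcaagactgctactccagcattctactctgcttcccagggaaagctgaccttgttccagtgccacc
Apln (chrX:48034804-48035103, minus strand): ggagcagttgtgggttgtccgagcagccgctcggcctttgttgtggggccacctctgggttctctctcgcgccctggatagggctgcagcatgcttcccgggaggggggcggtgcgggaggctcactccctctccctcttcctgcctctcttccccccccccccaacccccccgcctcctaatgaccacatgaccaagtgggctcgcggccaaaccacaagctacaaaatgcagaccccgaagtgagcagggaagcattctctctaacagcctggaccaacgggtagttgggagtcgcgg
Gkn3 (chr6:87388886-87389185, minus strand): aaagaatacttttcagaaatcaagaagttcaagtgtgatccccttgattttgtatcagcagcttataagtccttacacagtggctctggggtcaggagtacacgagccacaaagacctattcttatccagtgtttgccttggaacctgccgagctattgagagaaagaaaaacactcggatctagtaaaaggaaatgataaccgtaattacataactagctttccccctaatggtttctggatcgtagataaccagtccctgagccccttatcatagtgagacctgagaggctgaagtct
Rgs5 (chr1:169655251-169655550, plus strand): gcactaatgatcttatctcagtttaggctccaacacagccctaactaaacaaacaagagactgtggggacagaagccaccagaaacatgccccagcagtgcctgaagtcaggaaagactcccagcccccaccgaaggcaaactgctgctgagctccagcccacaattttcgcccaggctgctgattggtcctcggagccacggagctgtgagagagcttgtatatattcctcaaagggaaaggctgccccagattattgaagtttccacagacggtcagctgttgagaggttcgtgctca

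Promoters were found for 25 of the 39 members, which have 29 promoters in all. On both strands, the gamma-activated letters were in the promoters of Icam1, Glycam1 and Vtn, and in 8.3% of all 32851 promoters of this length. In Icam1 they began 42 bases before the start (position -42) and in Glycam1 145 bases before it (position -145). The interferon-stimulated response element motif was found in the promoters of Edn1 and Vtn, against 3.44% of all promoters. The hypoxia-response letters ACGTG were found in those of Slc2a1, Mfsd2a, Slco1c1, Tjp1 and Edn1, against 19.6% of all promoters. The kappaB motif, bound by NF-kappaB, was searched as a full consensus with no mismatch allowed and was found in Kdr and Flt1, against 8.46% of all promoters. None of these 4 motifs was in the windows of Apln, Gkn3 or Rgs5. In Vtn the motifs present did not overlap each other, nor did those in Edn1. A match is a description of letters in this window, and near matches to any motif were not counted.

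Library totals ran from 1290616 to 3704691 counts. WT + PBS replicate 1 had the lowest total and stood apart, with 12847 genes detected against 13604 or more in each of the others. Its levels of Bsg, Cldn5 and Slc2a1 were above those of the other WT + PBS libraries, and its levels of Tjp1, Slco1c1, Ly6a and Vcam1 were below them. Results that rest on it are therefore given with and without it. Xist, the RNA of the inactive X chromosome, was at 0 counts in all 3 WT + PBS libraries, at 47, 1 and 30 in WT + CBE, at 32 to 46 in MyTrMaSt + PBS, and at 0 to 39 in MyTrMaSt + CBE. The WT groups thus differ in Xist, and so do the PBS groups of the genotypes, where genotype and Xist cannot be told apart. The part of Xist in the results was not tested beyond a fit with Xist as a covariate. Myd88 had 19 to 71 counts in WT and 9 to 22 in MyTrMaSt libraries, while Ticam1, Mavs and Tmem173 had counts in every MyTrMaSt library. Where the deleted parts lie relative to the counted 3′ ends is not given in the sources used here, so these counts do not check the genotypes.

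Levels are given as CPM, counts scaled to one common library total after TMM normalization, and changes as log2 fold changes ± SE from one edgeR quasi-likelihood model of all 14 libraries. A gene was called where its p, adjusted over all 11852 tested genes, was below 0.05, and a called gene that differed at least 2-fold is a DEG. The p-values measure the spread between the mice of these groups. Whether reads were counted by strand is not given in the sources used here, so reads of a gene on the opposite strand that overlaps an exon, as at Icam1, Vcam1, Edn1, Slc2a1, Abcb1a, Eng, Egfl7, Tagln and Sox17, cannot be told apart from those of the member. In WT mice 10 of the 34 tested members were called, and 10.6% of all tested genes were called in that comparison. Of these members 6 rose, against 6.7% of all tested genes, and 4 fell, against 3.89%. Of the 10, 8 were DEGs, against 6.4% of all tested genes. In MyTrMaSt mice 8 members were called, against 7.75% of all tested genes, and 6 were DEGs, against 3.89%. Here 3 rose, against 5.32% of all tested genes, and 5 fell, against 2.44%. Without WT + PBS replicate 1 the numbers were 11 members in WT mice, against 12.7% of all genes, and 13 in MyTrMaSt mice, against 18.9%.

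**Figure D1:**
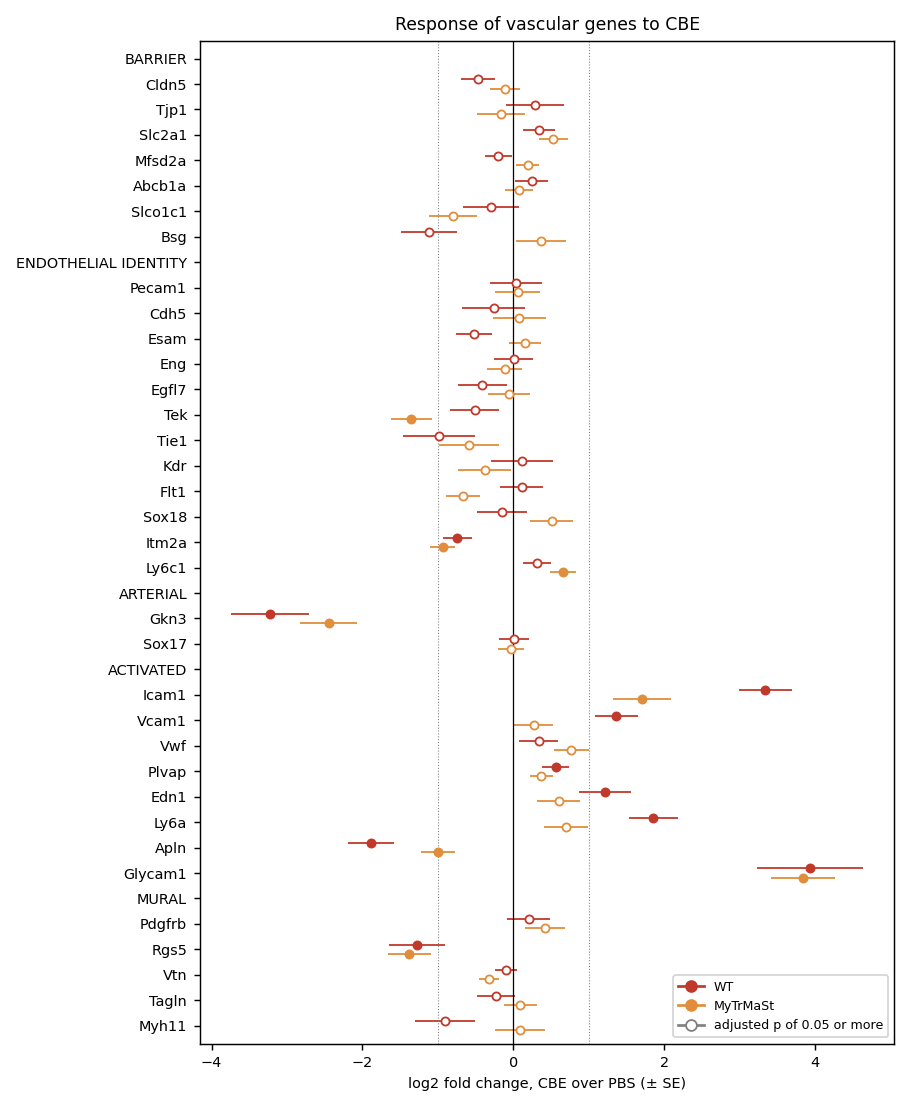
Log2 fold change of CBE over PBS (horizontal axis) for the 34 tested members, grouped by role, in WT (red) and MyTrMaSt (orange) brain. Bars are SE, filled points have an adjusted p below 0.05 and dotted lines mark a 2-fold change. Icam1 and Glycam1 lie farthest to the right and Gkn3 farthest to the left, and no barrier gene has a filled point.

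Over all 14 libraries, calls were shared between the genotypes more in one direction than the other. All 4 members that fell in WT mice (Itm2a, Gkn3, Apln and Rgs5) also fell in MyTrMaSt mice, where they made up 80% of the 5 that fell. Icam1 and Glycam1 rose in both genotypes, which is 33.3% of the 6 that rose in WT mice and 66.7% of the 3 that rose in MyTrMaSt mice. Over all tested genes, the shared falls were 18.9% of the falls in WT mice and 30.1% of those in MyTrMaSt mice, and the shared rises were 48.7% of the rises in WT mice and 61.4% of those in MyTrMaSt mice. With so few members these shares are a description. Without WT + PBS replicate 1, Slc2a1 and Ly6a were also called as rises in both genotypes, and Slco1c1 as a fall in both. The share of rises therefore depends on that library.

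Icam1, on chr9:21015985-21028817, encodes the main endothelial ligand of leukocyte integrins. It was at 4.51, 5.53 and 3.38 CPM in WT + PBS and at 38.4, 36.6 and 67.5 CPM in WT + CBE. In MyTrMaSt + PBS it was at 3.45, 2.91 and 1.057 CPM, and in MyTrMaSt + CBE at 6.62, 8.64, 6.48, 12.3 and 7.83 CPM. Every CBE library of either genotype was above every PBS library of its genotype, and every MyTrMaSt + CBE library was below every WT + CBE library. Icam1 rose by a log2 fold change of 3.34 ± 0.35 in WT mice (10.1-fold, edgeR adjusted p = 2.24e-06) and by 1.70 ± 0.38 in MyTrMaSt mice (3.26-fold, edgeR adjusted p = 0.00968). The MyTrMaSt call was lost without MyTrMaSt + PBS replicate 3, the lowest library, with a log2 fold change of 1.38 and an edgeR adjusted p of 0.0689.

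Vcam1 encodes the endothelial ligand of the integrin alpha4beta1 on lymphocytes and monocytes. Its levels were 5.42, 18.5 and 19.0 CPM in WT + PBS against 38.99, 43.2 and 38.6 CPM in WT + CBE. They were 17.95, 15.9 and 16.9 CPM in MyTrMaSt + PBS against 24.9, 16.5, 13.8, 23.6 and 23.1 CPM in MyTrMaSt + CBE. The WT groups did not overlap and the MyTrMaSt groups did. Vcam1 rose by 1.36 ± 0.29 on the log2 scale in WT mice (2.57-fold, edgeR adjusted p = 0.00392), and by 1.115 without WT + PBS replicate 1 (edgeR adjusted p = 0.00127). The call was lost when only the WT libraries were fitted (1.40, edgeR adjusted p = 0.0684). The MyTrMaSt response was 0.27 ± 0.26 (edgeR adjusted p = 0.561).

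Ly6a, also called Sca-1, is a surface protein of mouse endothelium and of several stem cells that interferons can induce. It was at 5.42, 35.4 and 27.0 CPM in WT + PBS and at 113, 73.2 and 82.0 CPM in WT + CBE. MyTrMaSt + PBS libraries had 26.9, 27.7 and 24.7 CPM, and MyTrMaSt + CBE libraries had 38.2, 37.9, 39.3, 53.2 and 47.4 CPM. The CBE libraries lay above the PBS libraries in both genotypes. Its log2 fold change was 1.85 ± 0.32 in WT mice (3.61-fold, edgeR adjusted p = 0.000773), or 1.53 when WT + PBS replicate 1 was left out (2.89-fold, edgeR adjusted p = 1.5e-05). With only the WT libraries fitted it was 1.895 and the call was lost (edgeR adjusted p = 0.062). The MyTrMaSt response of 0.70 ± 0.29 on the log2 scale did not pass (edgeR adjusted p = 0.153), while without that same WT library it was 0.71 and passed (edgeR adjusted p = 0.00683). Ly6 genes have near-identical neighbours, so the split of reads between them is uncertain.

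Edn1, which encodes the vasoconstrictor endothelin-1, was at 2.71, 4.15 and 4.22 CPM in WT + PBS and at 7.27, 8.92 and 12.1 CPM in WT + CBE. In MyTrMaSt + PBS it was at 6.22, 4.23 and 4.23 CPM, and in MyTrMaSt + CBE at 5.07, 7.14, 7.30, 10.8 and 7.05 CPM. The WT groups did not overlap, and 1 MyTrMaSt + CBE library lay within the PBS range. Edn1 rose by 1.22 ± 0.34 on the log2 scale in WT mice (2.32-fold, edgeR adjusted p = 0.0296) and differed by 0.60 ± 0.29 in MyTrMaSt mice (edgeR adjusted p = 0.213). It rests on 3 to 25 counts per library, and the WT call was lost without WT + PBS replicate 2 or 3 or WT + CBE replicate 2 or 3, with edgeR adjusted p from 0.0558 to 0.114, and with only the WT libraries fitted (edgeR adjusted p = 0.102).

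Plvap, the diaphragm protein of fenestrated endothelium that mature barrier vessels lack, was at 33.4, 40.1 and 33.8 CPM in WT + PBS and at 45.4, 56.8 and 58.5 CPM in WT + CBE. It was at 39.7, 47.6 and 40.5 CPM in MyTrMaSt + PBS and at 57.3, 47.3, 50.7, 61.5 and 58.7 CPM in MyTrMaSt + CBE. Its WT groups did not overlap, but the rise of 0.56 ± 0.18 on the log2 scale was only just called (1.47-fold, edgeR adjusted p = 0.048). It was not called without WT + PBS replicate 1 (edgeR adjusted p = 0.0571), and of the other 13 libraries only WT + PBS replicate 2, WT + CBE replicate 1 and MyTrMaSt + CBE replicate 4 could be left out with the call kept, the adjusted p otherwise running from 0.0535 to 0.161. With only the WT libraries fitted the edgeR adjusted p was 0.177. The MyTrMaSt response was 0.37 ± 0.15 on the log2 scale (edgeR adjusted p = 0.147). The choroid plexus holds fenestrated vessels. Its 6 markers summed to 1266 to 3386 CPM in WT + PBS and 1524 to 2478 CPM in WT + CBE, and none of the 6 was called in either genotype.

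Vwf, the clotting factor stored by endothelium, was not called by edgeR in either genotype over all libraries. Its levels were 15.8 to 20.7 CPM in WT + PBS and 18.8 to 27.4 CPM in WT + CBE, and they overlapped. In MyTrMaSt mice they did not, with 11.4, 12.7 and 12.7 CPM after PBS and 16.4, 20.3, 26.3, 28.1 and 14.1 CPM after CBE. The log2 fold change there was 0.77 ± 0.23 (edgeR adjusted p = 0.0537), and it passed with WT + PBS replicate 1 left out (0.77, edgeR adjusted p = 0.0193). Leaving out MyTrMaSt + CBE replicate 1 or 5 also brought it past the threshold, with edgeR adjusted p = 0.042 and 0.0275. It was called there by DESeq2 (0.76, adjusted p = 0.0362), with at least 10 counts required in every library (0.75, edgeR adjusted p = 0.0491) and with only the MyTrMaSt libraries fitted (0.76, edgeR adjusted p = 0.0352).

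Glycam1 encodes a secreted mucin that lymph node venules use as a ligand for L-selectin. It was almost undetected after PBS, at 0, 0.276 and 0.422 CPM in WT mice and at 0.345, 1.057 and 1.057 CPM in MyTrMaSt mice. After CBE it was at 4.36, 8.45 and 1.81 CPM in WT mice and at 12.1, 14.3, 11.8, 14.3 and 10.96 CPM in MyTrMaSt mice. The groups did not overlap in either genotype, and the WT libraries after CBE lay below the MyTrMaSt libraries after CBE. In WT mice 36 counts after CBE stood against 2 after PBS, a ratio of 17.7 with an exact 95% interval of 4.55 to 152 that covers counting error only (edgeR adjusted p = 0.000907). The MyTrMaSt response was 3.84 ± 0.43 on the log2 scale (14.3-fold, edgeR adjusted p = 1.07e-05). In MyTrMaSt mice no other tested member rose by more.

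Apln encodes apelin, a peptide of the tips of growing vessels that signals through Aplnr. It was at 31.6, 31.2 and 32.1 CPM in WT + PBS and at 10.8, 5.63 and 8.44 CPM in WT + CBE. In MyTrMaSt + PBS it was at 39.7, 37.8 and 50.02 CPM, and in MyTrMaSt + CBE at 16.8, 17.7, 17.0, 35.9 and 19.6 CPM. All CBE libraries lay below the PBS libraries of their genotype, although MyTrMaSt + CBE replicate 4 came close to them. The log2 fold change was -1.89 ± 0.31 in WT mice (edgeR adjusted p = 0.000351) and -1.003 ± 0.23 in MyTrMaSt mice (edgeR adjusted p = 0.0101). The latter call was lost without MyTrMaSt + PBS replicate 3 (log2 fold change -0.87, edgeR adjusted p = 0.0821). The receptor gene Aplnr had 0 to 6 counts per library and was not tested; it had 6 counts in all in WT + PBS and 1 in WT + CBE, a ratio of 0.164 with an exact 95% interval of 0.00356 to 1.35.

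Gkn3 encodes a secreted gastrokine that is used as a marker of arterial endothelium in mouse brain. After PBS it was at 5.42, 6.36 and 8.44 CPM in WT mice and at 5.18, 8.19 and 7.05 CPM in MyTrMaSt mice. CBE left it at 0.582, 0.469 and 1.21 CPM in WT mice and at 0.390, 1.88, 1.62, 0.492 and 1.57 CPM in MyTrMaSt mice. The groups were well apart in both genotypes, and the MyTrMaSt + CBE range enclosed the WT + CBE range. In WT mice 5 counts after CBE stood against 49 after PBS, a 9.98-fold fall with an exact 95% interval of 4.00 to 32.1 for counting error (edgeR adjusted p = 0.000322). The MyTrMaSt response was -2.45 ± 0.38 on the log2 scale (5.46-fold lower, edgeR adjusted p = 0.000416). Sox17, a transcription factor that specifies arterial endothelium, stood at 12.6 to 17.7 CPM in all 14 libraries, and its groups overlapped in both genotypes. The members of the arterial role therefore did not move together.

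**Figure D2:**
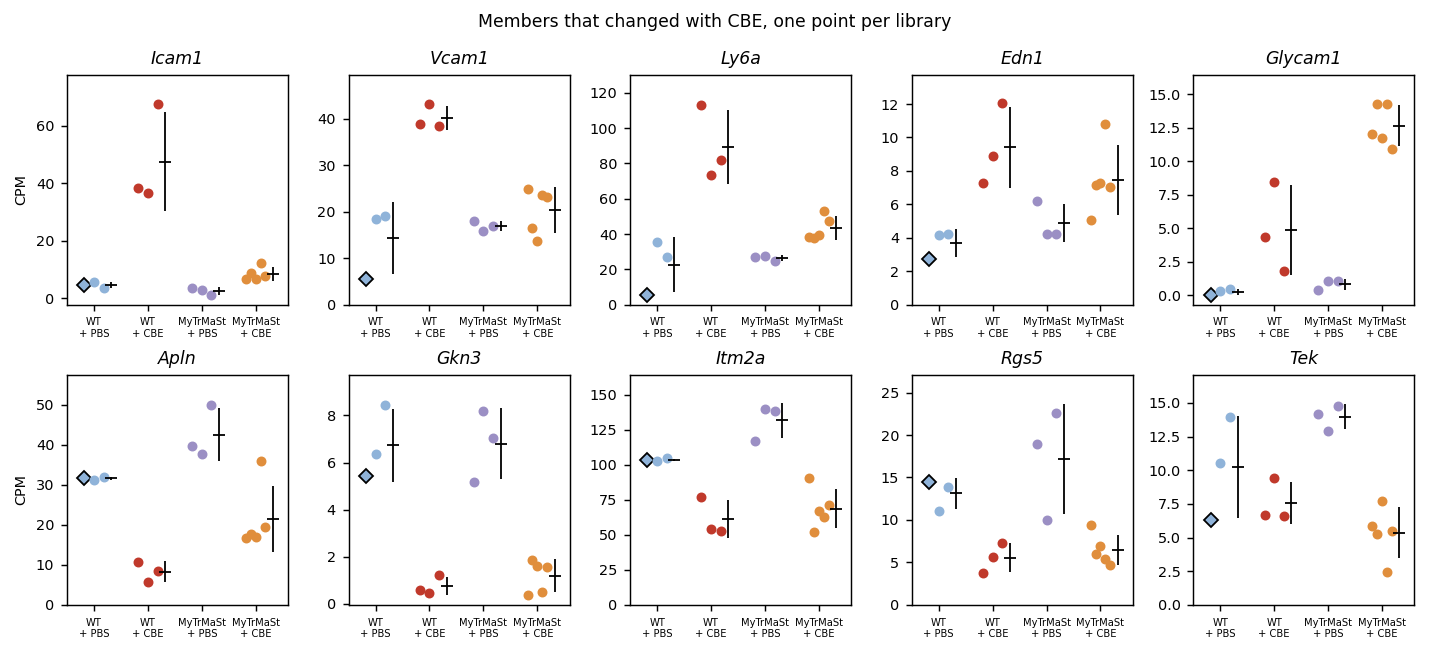
CPM per library (vertical axis, linear, each panel with its own scale) of 10 members called with CBE in at least 1 genotype. Each point is 1 library, the diamond is WT + PBS replicate 1, and the black marks are the group mean ± SD. Icam1, Vcam1 and Ly6a are highest in WT + CBE, Glycam1 is highest in MyTrMaSt + CBE, and Gkn3 is close to 0 in both CBE groups.

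Among the general endothelial genes, the defining markers Pecam1 and Cdh5 were detected in every library and did not move with CBE beyond their spread. Pecam1, an adhesion protein of endothelial contacts, was at 20.8, 18.8 and 20.7 CPM in WT + PBS, at 16.6, 22.1 and 23.5 CPM in WT + CBE, at 13.8, 22.2 and 14.4 CPM in MyTrMaSt + PBS and at 6.62, 19.2, 19.5, 28.1 and 16.1 CPM in MyTrMaSt + CBE. Cdh5, the VE-cadherin of adherens junctions, was at 11.7, 4.97 and 10.6 CPM, at 6.11, 8.45 and 6.63 CPM, at 7.25, 7.66 and 5.64 CPM, and at 4.68, 4.88, 8.51, 13.8 and 5.48 CPM in the same order of groups. All groups overlapped for both genes. Their edgeR adjusted p values were 0.974 and 0.762 in WT mice and 0.936 and 0.924 in MyTrMaSt mice.

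Itm2a, a transmembrane protein enriched in brain endothelium, was lower after CBE in both genotypes. It was at 103.8, 103.1 and 104.6 CPM in WT + PBS and at 77.4, 54.0 and 53.0 CPM in WT + CBE. MyTrMaSt + PBS libraries had 117.4, 139.7 and 138.8 CPM, and MyTrMaSt + CBE libraries had 90.8, 52.2, 66.9, 62.5 and 71.6 CPM. The groups did not overlap in either genotype. The log2 fold change was -0.74 ± 0.20 in WT mice (edgeR adjusted p = 0.0201) and -0.94 ± 0.17 in MyTrMaSt mice (edgeR adjusted p = 0.00166). The WT call was lost without WT + CBE replicate 2 or 3 (log2 fold change -0.66 and -0.65, edgeR adjusted p = 0.104 and 0.0939) and with only the WT libraries fitted (-0.74, edgeR adjusted p = 0.0909). The gene lies on the X chromosome, and with Xist as a covariate its log2 fold change in WT mice was -0.89 with an edgeR adjusted p of 0.0684.

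Tek (Tie2) and Tie1 are the angiopoietin receptor and its partner, which stabilise quiescent endothelium. Tek was at 6.32, 10.5 and 13.9 CPM in WT + PBS, at 6.69, 9.39 and 6.63 CPM in WT + CBE, at 14.2, 12.9 and 14.8 CPM in MyTrMaSt + PBS and at 5.85, 5.26, 7.70, 2.46 and 5.48 CPM in MyTrMaSt + CBE. It fell in MyTrMaSt mice, where the groups did not overlap (log2 fold change -1.35 ± 0.27, 2.55-fold lower, edgeR adjusted p = 0.00442). In WT mice the groups overlapped and the log2 fold change was -0.51 ± 0.32 (edgeR adjusted p = 0.355), and the difference between the genotypes did not pass (-0.84 ± 0.43 on the log2 scale, edgeR adjusted p = 0.424). Tie1 was at 1.21 to 15.3 CPM over all libraries and was not called, its change in WT mice being -0.985 ± 0.48 on the log2 scale (edgeR adjusted p = 0.21), or -0.51 without WT + PBS replicate 1 (edgeR adjusted p = 0.524), with overlapping groups in both genotypes.

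The VEGF receptors Kdr and Flt1 were not called over all 14 libraries. Kdr, which carries most VEGF signalling, had levels between 1.81 and 12.3 CPM with overlapping groups in both genotypes. Flt1, which also acts as a decoy for VEGF, was at 36.3, 24.8 and 37.0 CPM in MyTrMaSt + PBS and at 19.1, 21.4, 24.7, 19.2 and 17.6 CPM in MyTrMaSt + CBE, without overlap. Its log2 fold change there was -0.67 ± 0.23 (edgeR adjusted p = 0.0836), and it passed at -0.66 with WT + PBS replicate 1 left out (edgeR adjusted p = 0.0104). In WT mice Flt1 was at 8.12, 20.7 and 24.5 CPM after PBS and at 24.2, 18.3 and 18.1 CPM after CBE, with overlap.

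Ly6c1, a surface protein of brain capillary endothelium, was the general endothelial gene that rose. It was at 49.7, 74.5 and 63.1 CPM in MyTrMaSt + PBS and at 83.8, 88.6, 105.8, 101.4 and 113 CPM in MyTrMaSt + CBE, without overlap. In WT mice it was at 116, 96.2 and 91.5 CPM after PBS and at 152, 117 and 105.4 CPM after CBE, with overlap. The log2 fold change was 0.65 ± 0.17 in MyTrMaSt mice (1.57-fold, edgeR adjusted p = 0.0231) and 0.32 ± 0.19 in WT mice (edgeR adjusted p = 0.321). The MyTrMaSt call was lost without MyTrMaSt + PBS replicate 1 or 3 or MyTrMaSt + CBE replicate 3 or 5, with edgeR adjusted p from 0.0522 to 0.125. Near-identical Ly6 neighbours make its share of reads uncertain. Esam and Eng, a junction protein and a co-receptor of the TGF-beta family, were not called in either genotype, nor were Egfl7, a secreted protein of the vessel matrix, and the transcription factor Sox18. Over all libraries Esam was at 26.4 to 74.0 CPM, Eng at 28.6 to 80.3 CPM, Egfl7 at 27.4 to 88.4 CPM and Sox18 at 5.99 to 15.4 CPM. WT + PBS replicate 1 gave the highest level of Esam, Eng and Egfl7.

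Of the 9 barrier genes 7 were tested, and none was called in either genotype by edgeR over all libraries. At an unadjusted p below 0.05 there was 1 in WT mice (Bsg), against 24.7% of all tested genes, and 2 in MyTrMaSt mice (Slc2a1 and Slco1c1), against 23.7%. DESeq2 called Bsg in WT mice and no barrier gene in MyTrMaSt mice, and limma voom called none. The tight junction gene Cldn5, which seals brain endothelium, was at 173, 96.2 and 81.4 CPM in WT + PBS, at 90.8, 77.4 and 79.5 CPM in WT + CBE, at 91.5, 88.0 and 100.7 CPM in MyTrMaSt + PBS and at 69.0, 79.6, 101.3, 101.4 and 81.8 CPM in MyTrMaSt + CBE. Groups overlapped in both genotypes, and the high value is that of WT + PBS replicate 1. Its WT log2 fold change was -0.47 ± 0.23 over all libraries (edgeR adjusted p = 0.216) and -0.09 without that library (edgeR adjusted p = 0.798).

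Slc2a1 (Glut1), on chr4:119108711-119137983, carries glucose across the barrier. Its levels were 357, 175 and 186 CPM in WT + PBS and 323, 279 and 294 CPM in WT + CBE. They were 151, 161 and 182 CPM in MyTrMaSt + PBS and 235, 227, 214, 275 and 237 CPM in MyTrMaSt + CBE. In MyTrMaSt mice the groups did not overlap, and in WT mice only the PBS library that stood apart was above the CBE libraries. The log2 fold change was 0.34 ± 0.21 in WT mice (edgeR adjusted p = 0.351) and 0.53 ± 0.19 in MyTrMaSt mice (edgeR adjusted p = 0.0975). It was called in both once WT + PBS replicate 1 was left out, at 0.75 in WT mice (1.68-fold, edgeR adjusted p = 0.000397) and at 0.54 in MyTrMaSt mice (1.45-fold, edgeR adjusted p = 0.00128). The MyTrMaSt estimate itself hardly moved, while its SE went from 0.19 to 0.11.

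Slco1c1 carries thyroxine across the barrier. It was at 8.12, 51.1 and 57.0 CPM in WT + PBS, at 34.3, 32.9 and 33.7 CPM in WT + CBE, at 54.6, 63.1 and 49.7 CPM in MyTrMaSt + PBS and at 42.1, 22.9, 39.3, 23.6 and 32.1 CPM in MyTrMaSt + CBE. The MyTrMaSt groups did not overlap, and in WT mice WT + PBS replicate 1 alone lay below the CBE libraries. The log2 fold change over all libraries was -0.30 ± 0.38 in WT mice (edgeR adjusted p = 0.688) and -0.80 ± 0.32 in MyTrMaSt mice (edgeR adjusted p = 0.136). It was called in both once WT + PBS replicate 1 was left out, at -0.66 in WT mice (edgeR adjusted p = 0.0484) and at -0.79 in MyTrMaSt mice (edgeR adjusted p = 0.0027).

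Bsg (basigin), a membrane glycoprotein of barrier endothelium that neurons and other cells also make, was at 1309, 277 and 394 CPM in WT + PBS and at 315, 267 and 321 CPM in WT + CBE. Its log2 fold change in WT mice was -1.12 ± 0.37 (edgeR adjusted p = 0.065). This value rests on WT + PBS replicate 1, without which it was -0.14 (edgeR adjusted p = 0.679), and it passed without WT + PBS replicate 2 or 3 (edgeR adjusted p = 0.00505 and 0.0256). MyTrMaSt libraries had 217 to 302 CPM after PBS and 287 to 407 CPM after CBE.

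Mfsd2a, which carries docosahexaenoic acid and holds down vesicle traffic, Abcb1a (P-glycoprotein) and Tjp1 (ZO-1), a junction scaffold, had overlapping groups in both genotypes. Mfsd2a was at 106 to 182 CPM, Abcb1a at 27.1 to 50.7 CPM and Tjp1 at 1.81 to 28.2 CPM over all libraries, the lowest Tjp1 value being that of WT + PBS replicate 1. Abcb1a has a near-identical neighbour, Abcb1b, and reads of both could be split between them. Ocln, another tight junction protein, had 2 to 16 counts per library and Slco1a4, an organic anion carrier, 0 to 8, so neither was tested. For Slco1a4, 18 counts in WT + CBE stood against 3 in WT + PBS, a ratio of 5.89 with an exact 95% interval of 1.72 to 31.2 for counting error.

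**Figure D3:**
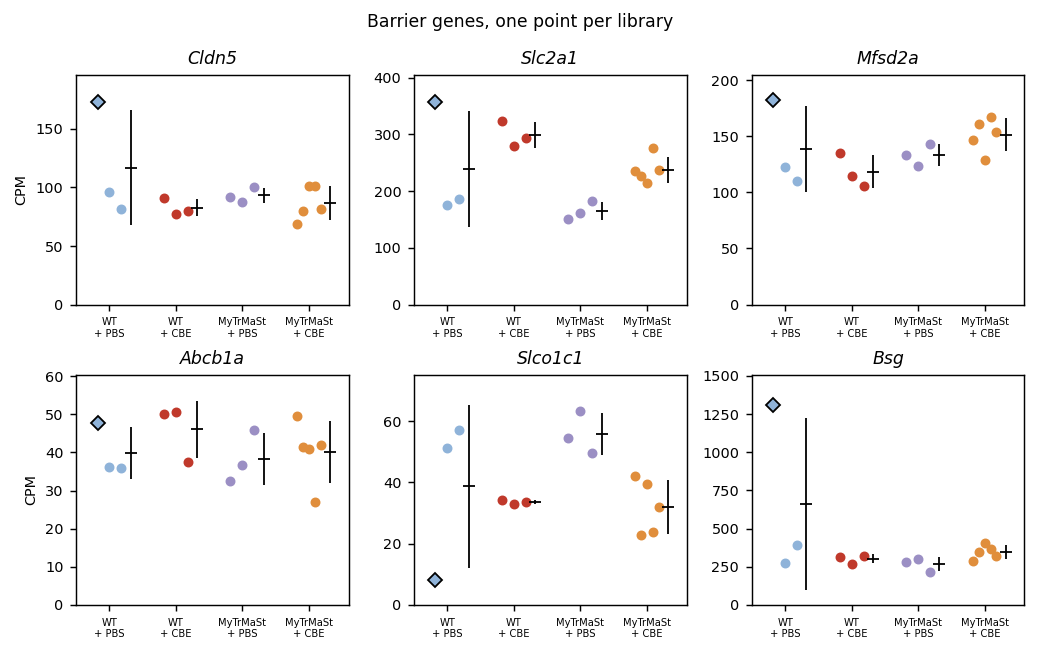
CPM per library (vertical axis, linear from 0, each panel with its own scale) of 6 barrier genes. Each point is 1 library, the diamond is WT + PBS replicate 1, and the black marks are the group mean ± SD. The diamond lies at the top of the Cldn5, Slc2a1, Mfsd2a and Bsg panels and at the bottom of the Slco1c1 panel, and the other PBS libraries lie below the CBE libraries for Slc2a1 and above them for Slco1c1.

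Among the mural genes, the pericyte receptor gene Pdgfrb was at 11.7, 9.40 and 13.9 CPM in WT + PBS, at 13.97, 11.3 and 14.5 CPM in WT + CBE, at 7.25, 7.66 and 7.40 CPM in MyTrMaSt + PBS and at 6.62, 8.26, 13.8, 13.3 and 8.22 CPM in MyTrMaSt + CBE. It was not called, with edgeR adjusted p = 0.726 in WT mice and 0.362 in MyTrMaSt mice. Rgs5, a regulator of G-protein signalling that marks brain pericytes, was lower after CBE in both genotypes. It was at 14.4, 11.1 and 13.9 CPM in WT + PBS, at 3.78, 5.63 and 7.23 CPM in WT + CBE, at 19.0, 10.04 and 22.5 CPM in MyTrMaSt + PBS and at 9.35, 6.01, 6.89, 5.42 and 4.70 CPM in MyTrMaSt + CBE. The groups did not overlap in either genotype. Its log2 fold change was -1.28 ± 0.37 in WT mice (2.43-fold lower, edgeR adjusted p = 0.0318) and -1.38 ± 0.28 in MyTrMaSt mice (2.60-fold lower, edgeR adjusted p = 0.00529).

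The Rgs5 call was lost in WT mice without WT + PBS replicate 3, WT + CBE replicate 1 or WT + CBE replicate 2 (log2 fold changes of -1.21, -1.01 and -1.33, edgeR adjusted p from 0.0742 to 0.171). It was lost in MyTrMaSt mice without MyTrMaSt + PBS replicate 3 (-1.13, edgeR adjusted p = 0.0542). With Xist as a covariate the WT value for Rgs5 was -1.41 (edgeR adjusted p = 0.139), and with only the WT libraries fitted it was -1.26 (edgeR adjusted p = 0.0783).

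Vtn, which encodes vitronectin and is strongly expressed by pericytes, was at 118 to 144 CPM in WT + PBS, 116 to 135 CPM in WT + CBE, 160 to 182 CPM in MyTrMaSt + PBS and 120 to 159 CPM in MyTrMaSt + CBE. The MyTrMaSt groups did not overlap, but Vtn was not called (edgeR adjusted p = 0.131). The contractile genes Tagln and Myh11 of smooth muscle were at 16.8 to 35.0 and 3.62 to 11.7 CPM and were not called in either genotype, although the 3 WT + CBE libraries of Myh11 lay below the WT + PBS libraries (log2 fold change -0.90 ± 0.40, edgeR adjusted p = 0.171). Acta2, smooth muscle actin, had 0 to 8 counts per library and Anpep, a pericyte peptidase, 1 to 13, and neither was tested. For Anpep 25 counts in WT + CBE stood against 7 in WT + PBS, a ratio of 3.51 with an exact 95% interval of 1.47 to 9.60 for counting error.

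Counted by separation alone, 6 tested members had all WT + CBE libraries above all WT + PBS libraries, against 15.1% of all tested genes, and 5 had them below, against 12.8%. In MyTrMaSt mice the numbers were 6 above (Slc2a1, Ly6c1, Icam1, Vwf, Ly6a and Glycam1), against 11.8%, and 8 below (Slco1c1, Tek, Flt1, Itm2a, Gkn3, Apln, Rgs5 and Vtn), against 10.7%. The median log2 fold change of the 8 tested members of activated endothelium was 1.29 in WT mice and 0.65 in MyTrMaSt mice. For the 7 tested barrier genes it was -0.20 and 0.07, for the 12 general endothelial genes -0.21 and -0.09, and for the 5 tested mural genes -0.23 and 0.09. Over all tested genes the median was -0.02 and 0.01. Without WT + PBS replicate 1 the medians in WT mice were 1.12 for activated endothelium, -0.04 for barrier, -0.13 for general endothelial and -0.09 for mural genes, with 0.001 over all genes.

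After CBE, 5 members differed between MyTrMaSt and WT brain, against 2.54% of all tested genes, and 4 of them were DEGs, against 2.01%. Icam1, Vcam1 and Ly6a were lower in MyTrMaSt brain, against 2.35% of all genes, and Apln and Glycam1 were higher, against 0.194%. The study itself had reported Apln and Glycam1 as higher in this comparison, from these same libraries and by PCR. The members were chosen with earlier results of these data known, so the 0.194% gives no independent support for Apln and Glycam1. The libraries, given above for each gene, did not overlap for any of the 5. Icam1 differed most, with a log2 fold change of -2.49 ± 0.27 (5.63-fold lower, edgeR adjusted p = 5.72e-06), and it was called under every alternative that tested it. For Vcam1 the log2 fold change was -0.98 ± 0.24 (edgeR adjusted p = 0.0318), for Ly6a -1.06 ± 0.27 (2.09-fold lower, edgeR adjusted p = 0.041), for Apln 1.31 ± 0.29 (2.47-fold higher, edgeR adjusted p = 0.0139) and for Glycam1 1.34 ± 0.33 (2.53-fold higher, edgeR adjusted p = 0.0309). All 5 were also called without WT + PBS replicate 1, against 3.53% of all genes. In all, 5 members were lower in every MyTrMaSt + CBE library than in every WT + CBE library, against 6.02% of all genes, and 2 were higher, against 3.94%. Of these Slc2a1 and Eng were not called, with log2 fold changes of -0.33 ± 0.19 and -0.50 ± 0.23 (edgeR adjusted p = 0.771 and 0.584).

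The calls of these 4 smaller genotype differences depended on single libraries. The call for Apln was lost without WT + CBE replicate 2 or 3 (edgeR adjusted p = 0.123 and 0.0632). That for Glycam1 was lost without WT + CBE replicate 1 or 3 or any 1 of MyTrMaSt + CBE replicates 1 to 4, with edgeR adjusted p from 0.0521 to 0.259. Vcam1 was no longer called without any 1 of the WT + CBE or MyTrMaSt + PBS libraries or MyTrMaSt + CBE replicate 2, 3 or 5, with edgeR adjusted p from 0.0505 to 0.171. Ly6a was no longer called without any 1 of the same groups or MyTrMaSt + CBE replicate 1, 2, 3 or 5, with edgeR adjusted p from 0.063 to 0.39, nor with Xist as a covariate (-1.07, edgeR adjusted p = 0.0529). In the fits named here the log2 fold changes kept their direction, at -0.87 to -1.05 for Vcam1 and -0.85 to -1.19 for Ly6a.

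After PBS, 0 members differed between the genotypes by edgeR, against 0.186% of all tested genes. At an unadjusted p below 0.05 there were 8 of 34, against 16.8% of all tested genes. DESeq2 called 2, Bsg and Ly6c1, and limma voom called none. By separation alone 5 members (Flt1, Itm2a, Edn1, Apln and Vtn) lay higher in MyTrMaSt + PBS and 4 (Esam, Ly6c1, Vwf and Pdgfrb) lower, against 10.1% of all genes in each direction. Ly6c1 was the gene of these 9 that DESeq2 called (edgeR: log2 fold change -0.69 ± 0.19, edgeR adjusted p = 0.129). The Flt1 difference was 0.77 ± 0.27 on the log2 scale (edgeR adjusted p = 0.175). The Bsg value, -1.29 ± 0.37 on the log2 scale (edgeR adjusted p = 0.14), was -0.32 without WT + PBS replicate 1 (edgeR adjusted p = 0.478).

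The test of the difference between the genotypes' responses also called 0 members by edgeR, against 0.489% of all tested genes. At an unadjusted p below 0.05 there were 7 of 34, against 12.5% of all tested genes, and neither DESeq2 nor limma voom called any. The change of Icam1 with CBE was smaller in MyTrMaSt than in WT mice by 1.64 ± 0.56 on the log2 scale (interaction -1.64, edgeR adjusted p = 0.267). The interactions were -1.09 ± 0.38 for Vcam1 (edgeR adjusted p = 0.276), -1.15 ± 0.43 for Ly6a (edgeR adjusted p = 0.308) and 0.88 ± 0.39 for Apln (edgeR adjusted p = 0.37). For Gkn3 it was 0.77 ± 0.71 (edgeR adjusted p = 0.672). The comparison after CBE and the response in WT mice share the WT + CBE libraries, so their values for one gene are not independent.

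Markers of other brain cells moved with CBE beside these genes. Of 7 microglial markers 5 rose in each genotype, and their summed level was 398 to 541 CPM in WT + PBS, 1762 to 2160 CPM in WT + CBE, 345 to 377 CPM in MyTrMaSt + PBS and 1011 to 1174 CPM in MyTrMaSt + CBE. That order of groups is the one seen for Icam1, and C1qa and Aif1 were lower in MyTrMaSt than in WT mice after CBE. Of 6 astrocyte markers 3 rose in WT and 2 in MyTrMaSt mice, with summed levels of 2449 to 3153, 3770 to 4069, 3017 to 3429 and 4029 to 4346 CPM in the same order. Activated microglia and astrocytes can also make Icam1, and the part of these cells in the member results was not tested. Among the rest, 4 of 5 oligodendrocyte markers fell in WT mice and none was called in MyTrMaSt mice, 1 of 6 neuronal markers fell in each genotype (Slc17a7 in WT and Snap25 in MyTrMaSt mice), and no choroid plexus, fibroblast or blood marker was called. Slc17a7 had its highest level in WT + PBS replicate 1, and without that library its log2 fold change in WT mice was -0.43 (edgeR adjusted p = 0.113). With that library left out, 6 microglial and 4 astrocyte markers rose in WT mice and 5 and 4 in MyTrMaSt mice, where 1 microglial marker, P2ry12, fell. Oligodendrocyte markers that fell then numbered 5 in WT and 2 in MyTrMaSt mice. Among neuronal markers 2 then fell in each genotype and 1 rose in MyTrMaSt mice, and 1 fibroblast marker, Igf2, rose in MyTrMaSt mice. Their summed levels in the same order of groups were 16210 to 19480, 9817 to 12750, 16000 to 19180 and 11990 to 16090 CPM for oligodendrocytes, and 3843 to 4333, 3185 to 3525, 4204 to 5125 and 3549 to 4040 CPM for neurons. Blood was represented by 3 of 9 markers, with the globin genes not listed, and these summed to 11.6 to 25.3 CPM over all libraries.

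Beyond the 39 genes, 11 lists of other vascular genes were counted. Their counts stand against 6.7% of all tested genes rising and 3.89% falling in WT mice and 5.32% and 2.44% in MyTrMaSt mice, or 12.7% and 18.9% called in either direction without WT + PBS replicate 1. In most lists the count was 0 to 3 genes and is a description only. In the VEGF and angiopoietin list of 14 tested genes, 1 rose and 2 fell in each genotype. Without WT + PBS replicate 1 it was 1 and 1 in WT mice and 3 and 3 in MyTrMaSt mice. Angptl4, a lipase inhibitor that endothelium and astrocytes release in hypoxia and fasting, rose from 13.2 ± 5.0 to 61.0 ± 6.2 CPM (SD, n = 3 each) in WT mice and from 10.2 ± 3.6 (n = 3) to 36.6 ± 8.1 CPM (n = 5) in MyTrMaSt mice. Its log2 fold changes were 2.32 ± 0.29 (edgeR adjusted p = 1.99e-05) and 1.83 ± 0.26 (edgeR adjusted p = 0.000221). The growth factor Vegfa fell in WT mice (log2 fold change -1.15 ± 0.31, edgeR adjusted p = 0.0233) and was not called in MyTrMaSt mice (edgeR adjusted p = 0.993). There it was at 43.2, 46.2 and 37.7 CPM after PBS and at 36.6, 31.9, 33.6, 82.2 and 30.9 CPM after CBE, so that replicate 4 lay above all PBS libraries and the other 4 below them. Dll4, the Notch ligand of tip cells and arteries, fell in WT mice (-1.19 ± 0.34, edgeR adjusted p = 0.03), a call lost without WT + PBS replicate 1 (-1.07, edgeR adjusted p = 0.0519). Vegfb and Vegfc fell in MyTrMaSt mice, and Vegfc was a DEG there (-1.07 ± 0.32, edgeR adjusted p = 0.0495).

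In the list of other endothelial activation genes, 6 of 15 tested genes rose in WT mice and 5 in MyTrMaSt mice. Without WT + PBS replicate 1, 5 rose in WT mice, and 6 rose and 1 fell in MyTrMaSt mice. Lcn2, an iron-binding acute phase protein, rose from 3.08 ± 1.96 to 549.6 ± 186.5 CPM in WT mice and from 3.43 ± 3.73 to 22.0 ± 4.1 CPM in MyTrMaSt mice. It was the list's gene for which the interaction was called (-4.84 on the log2 scale, edgeR adjusted p = 0.00847). Ch25h, which makes an oxysterol, rose by 4.31 ± 0.42 and 3.65 ± 0.39 on the log2 scale in WT and MyTrMaSt mice (edgeR adjusted p = 1.09e-06 and 7.51e-06). Itgb2, the leukocyte integrin chain that binds Icam1, rose by 3.86 ± 0.30 and 2.53 ± 0.26 (edgeR adjusted p = 6.21e-08 and 5.5e-06). Socs3, a feedback inhibitor of STAT3 signalling, rose by 2.90 ± 0.56 and 2.29 ± 0.48 (edgeR adjusted p = 0.00197 and 0.00581). Itgb2 is a leukocyte and microglial gene, and Lcn2 and Socs3 are also made by astrocytes and microglia. Over all libraries the other genes of the list that rose were Nfkbia in both genotypes and Ednrb in WT mice. Icam2, Thbd, Tfpi and Nos3 of the same list, named after their values were seen, were not called in either genotype. Their log2 fold changes in WT mice were -0.08, -0.32, 0.60 and 0.12. The part of microglia, astrocytes or other cells in the rises of this list, those of Ch25h and Nfkbia included, was not tested.

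Of 16 other tested barrier transport genes, 3 rose in WT mice, and 3 rose and 1 fell in MyTrMaSt mice. Without WT + PBS replicate 1, 4 rose and 1 fell in WT mice, and 4 rose and 4 fell in MyTrMaSt mice. The efflux pump genes Abcb1b and Abcc4 rose in WT mice (log2 fold changes 1.55 ± 0.47 and 1.26 ± 0.39, edgeR adjusted p = 0.0422 and 0.0439). Slc38a5, a glutamine carrier, fell in MyTrMaSt mice (-1.58 ± 0.30, edgeR adjusted p = 0.00297) and had a log2 fold change of -1.22 ± 0.39 in WT mice (edgeR adjusted p = 0.0547). Among 11 other junction genes F11r and Marveld2 rose in WT mice and none was called in MyTrMaSt mice. Marveld2, a protein of tricellular contacts, had a log2 fold change of 1.45 ± 0.37 in WT mice (edgeR adjusted p = 0.0165) at 1.97 ± 0.93 and 6.18 ± 0.41 CPM.

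The 12 tested genes of Wnt signalling that induces the barrier gave no call in either genotype. Their medians were -0.10 and 0.13 on the log2 scale, against -0.02 and 0.01 over all genes. The 5 caveolar genes gave 0 and 1 calls, the 2 venous genes none, and the 14 basement membrane genes 1 and 0. Of 5 other arterial genes 1 rose in both genotypes and 1 fell in WT mice, which differs in direction from Gkn3 for Mgp, the matrix Gla protein (log2 fold change 0.73 in WT and 0.94 in MyTrMaSt mice, edgeR adjusted p = 0.00938 and 0.000842). Among 14 other mural genes Mylk, the myosin light chain kinase, rose in both genotypes (1.302 and 0.84, edgeR adjusted p = 0.00291 and 0.0245), and without WT + PBS replicate 1 the list had 1 rise in WT mice and 3 rises and 3 falls in MyTrMaSt mice. Among 26 other endothelial genes the transcription factor Fli1, which microglia also express, rose in WT mice (1.47 ± 0.40, edgeR adjusted p = 0.0239), and Ramp2, a co-receptor of adrenomedullin, in MyTrMaSt mice. The genes of these lists named here with changes below 2-fold were chosen after their values were seen.

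**Figure D4:**
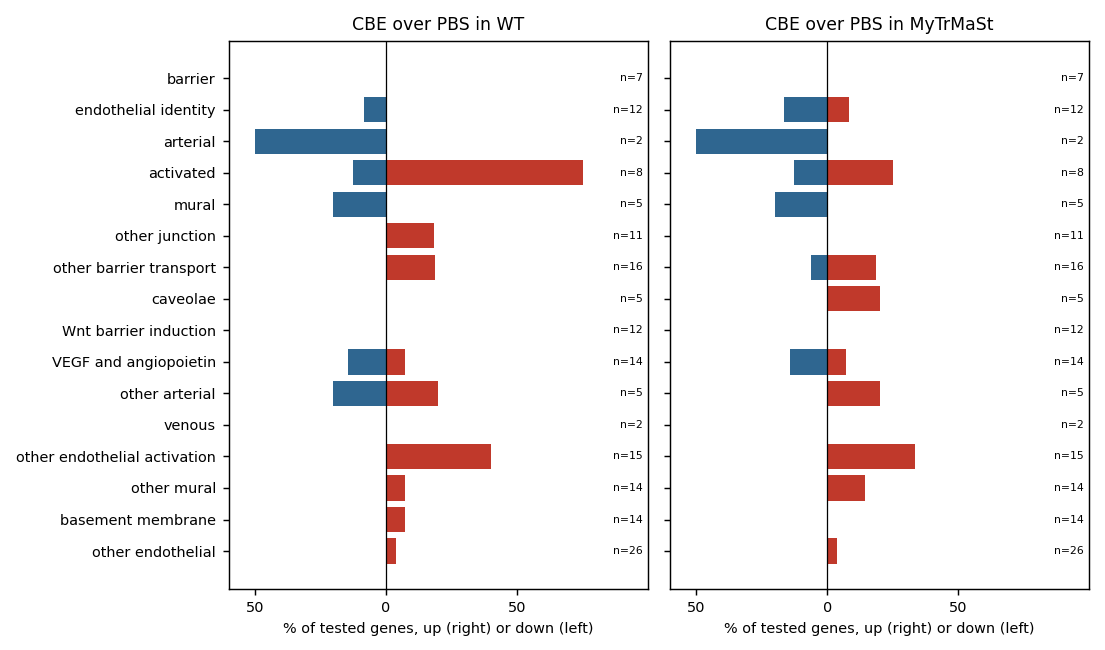
Share of tested genes called with CBE (horizontal axis, % of the genes tested in each list, rising genes to the right and falling genes to the left) in WT and MyTrMaSt brain, for the 5 roles of the 39 genes and 11 further lists. Numbers at the right give the genes tested. Bars for activated endothelium and other endothelial activation reach farthest to the right in WT brain, and barrier and Wnt lists have no bar in either genotype.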

How the data were processed

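Brain homogenates of 14 mice were profiled by MARSseq, a 3′ method. The authors mapped reads to the mouse genome (mm10) with hisat and deposited raw counts per gene of uniquely mapped reads. The submitters' notes also name cutadapt and HTSeq. The other tables were not used: one of normalized values and one of the authors' own fold changes and p-values. Groups came from the sample labels.

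From the deposited counts, 11852 of 13866 genes passed filterByExpr and were fitted with edgeR 4.0.16 (quasi-likelihood test, TMM, group means of all 14 libraries, R 4.3.3) with Benjamini-Hochberg adjustment. Alternatives used DESeq2 1.42.0, limma 3.58.1 (voom), other filters, other samples, the replicate number as a block, Xist as a covariate and leaving out each library. Counting the other lists and taking the role medians without WT + PBS replicate 1 was chosen after seeing the data. Counts were compared in 19 pairs of libraries within groups; chi-square divided by its degrees of freedom ran from 2.32 to 20.6, above sampling noise, so no library was taken as a repeated deposit. Exact 95% intervals cover counting error only, since reads may share molecules. Library totals set the precision, and the shallowest library had 1290616 counts.

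The members and lists were chosen with earlier results of these data known. All 39 members were described. Values per library were given for called members and for those that define the cell types, and from other lists the DEGs of CBE against PBS were named, at most 4 per list. Gene locations came from GENCODE (GRCm38) and promoters from RefSeq.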

Additional observations from a re-analysis of the deposited data

Results flagged for a closer look

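In groups of 5 libraries, a library far from the others was looked for in each of the 39 members in MyTrMaSt + CBE, and 2 members had one. Chance alone gives about 1 in 20. Both were in MyTrMaSt + CBE replicate 4. That library had 0 Xist counts, against 18 to 39 in the others of its group. Over all tested genes its log2 levels correlated with theirs at 0.954 to 0.966, against 0.973 to 0.979 among the others. Apln was at 35.94 CPM there, against 16.75 to 19.57 CPM in the other 4 libraries, a gap of 0.853 of the range of the group. Egfl7 was at 53.17 CPM there, against 29.99 to 32.67 CPM in the other 4, a gap of 0.884 of the range. The Apln fall in MyTrMaSt mice and its higher level than in WT mice after CBE were both called without this library.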

How the results depend on the processing

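With edgeR over all libraries 10 members were called in WT mice, 8 in MyTrMaSt mice, 5 between genotypes after CBE, and 0 both after PBS and in the interaction. Requiring at least 10 counts in every library gave 4, 5 and 1 calls of 20 tested members in the first 3 comparisons, against 8.3%, 7.71% and 0.95% of all genes. Icam1, Vcam1, Ly6a, Edn1, Gkn3, Glycam1 and Tek were then not tested, and of the 5 calls in MyTrMaSt mice 4 were among the 8 and the other was Vwf (edgeR adjusted p = 0.0491). Fitting only the groups compared gave 4 calls in WT mice, against 4.27% of all genes, without Vcam1, Ly6a, Edn1, Itm2a, Plvap and Rgs5 (edgeR adjusted p from 0.062 to 0.177), and 13 in MyTrMaSt mice, against 15% of all genes, with Flt1, Ly6a, Slc2a1, Slco1c1 and Vwf added, and the cause was not tested. DESeq2 called 2 members after PBS, against 2.24% of all genes. Leaving out each library in turn gave 6 to 11 calls in WT mice, 4 to 13 in MyTrMaSt mice, 1 to 5 between genotypes after CBE, 0 to 2 after PBS and 0 to 1 in the interaction, while the share of all genes called ran from 6.3% to 12.7%, 3.77% to 18.9%, 1.84% to 3.53%, 0.0422% to 3.97% and 0.228% to 0.886%. The 13 calls in MyTrMaSt mice and the 11 in WT mice came without WT + PBS replicate 1, the 4 without MyTrMaSt + PBS replicate 3. Without WT + PBS replicate 2, Bsg and Esam were called after PBS, and Bsg was called in the interaction (edgeR adjusted p for Bsg = 0.0164 and 0.0458). The Slco1c1 change in WT mice ran from -0.66 without WT + PBS replicate 1 to 0.002 without WT + PBS replicate 3. It was the one reversal among the 57 single-gene results counted next. Uncalled members outside these results also turned in WT mice without WT + PBS replicate 1, such as Egfl7 (-0.41 to 0.17) and Mfsd2a (-0.20 to 0.05). Over 57 single-gene results and 1215 alternatives, 1117 kept the direction and the side of the threshold, 74 lost the call and 23 gained it. With Xist as a covariate Itm2a, Plvap and Rgs5 were lost in WT mice and Ly6a between genotypes after CBE. Low counts limit Glycam1, Gkn3, Edn1 and the untested members.

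Same-numbered libraries did not deviate together in every pair (correlations of deviations from -0.12 to 0.173), so the replicate numbers were not taken as pairs. With the replicate block 5 members were called in MyTrMaSt mice, against 3.18% of all genes, and 1, Icam1, between genotypes after CBE, against 1.84%. Lost were Icam1, Rgs5 and Ly6c1 in MyTrMaSt mice (edgeR adjusted p = 0.101, 0.0551 and 0.184), Plvap in WT mice (0.0789), and Vcam1, Ly6a, Apln and Glycam1 between genotypes (from 0.0687 to 0.153), all in the same direction.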
